A study of Homo sapiens with 28 samples.

Results

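The histone genes encode the linker and core histones that package DNA into nucleosomes. They were chosen by symbol, as genes that begin with H1-, H2A, H2B, H3- or H4- or had an older name of the histone families, with all their probe sets. This gave 55 genes and pseudogenes of the 12812 listed for the arrays, and 52 of the 27306 probe sets. Of these, 34 were annotated to 1 symbol and covered 25 genes, and 18 were shared by several symbols, because histone genes are near-copies of each other. A shared probe set is named here only by its identifier and its histone class. The classes held 2 probe sets of H1, 7 of H2A, 13 of H2B, 4 of H2A.J, 3 of H2A.X, 5 of H2A.Z, 4 of H3, 9 of H3.3 and 5 of H4, and 1 of the H3 probe sets, 214472_at, also lists an H2A gene. Of the 52 identifiers 16 end in _x_at and 14 in _s_at, marks the array maker gives to probe sets that can bind related transcripts.

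The arrays came from 7 established acute myeloid leukaemia (AML) lines named GDM1, MOLM13, SKM1, THP1, SKNO1, NOMO1 and, lastly, SHI1. Each was treated for 96 hours with GSK3484862 at 1 µM or with the vehicle, DMSO, at 0.1%. GSK3484862 blocks DNMT1, the enzyme that copies DNA methylation onto newly made strands. The design text calls the 2 arrays of each of the 14 groups biological duplicates, and 28 Affymetrix Human Genome U133 Plus 2.0 arrays were analysed. The labels give no genotype for any line and no other agent in the medium.

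All values are log2 probe set signals as deposited, from 2.13, the lowest value in the table, to 16.8. Array medians lay between 8.33 and 8.51, and duplicates correlated at r = 0.991 to 0.997 across probe sets. The SD of a single array was 0.182 to 0.301, widest in GSK3484862-treated SKM1. Of 10 blood and myeloid markers 9 were measured. PTPRC (CD45) had group means of 11.2 to 13.5 and the myeloid factor SPI1 of 8.89 to 10.4, while the monocyte receptor CD14 was at the lowest value and the neutrophil elastase gene ELANE near it in some groups.

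A nucleosome core holds H2A, H2B, H3 and H4, and H1 sits on the linker DNA where it enters and leaves the core. Most of their genes lie in clusters, are transcribed in S phase, and give mRNAs that end in a stem-loop in place of a poly(A) tail, although many of them can also give polyadenylated mRNAs. Replication-independent variants such as H3.3 and H2A.Z have ordinary polyadenylated mRNAs made throughout the cell cycle. How RNA was primed for labelling is not given in the sources used here, and a poly(A)-primed label would read mainly the polyadenylated form of the clustered genes. A level here may therefore not be that of all histone mRNA, and fewer cells in S phase cannot be told apart from less RNA per cell.

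The promoters of the clustered genes carry short shared elements. The octamer ATTTGCAT, which the factor Oct-1 (POU2F1) binds in H2B promoters, the CCAAT box CCAAT, the TATA box TATAAA and the H1 box AAACACA were searched on both strands in the 250 bases upstream of each start, in RefSeq windows on GRCh38.p14. Of the 25 genes with a probe set of their own 23 had a window, and different motifs overlapped at 0 places. The last 150 bases before the start of 5 genes whose signal was higher with GSK3484862 are shown to let the shared elements be seen, with every match to these 4 motifs in capitals.
H1-2 (chr6:26056471-26056620, minus strand): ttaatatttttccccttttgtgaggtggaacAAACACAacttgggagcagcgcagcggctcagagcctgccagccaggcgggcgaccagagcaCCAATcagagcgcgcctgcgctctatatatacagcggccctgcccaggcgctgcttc
H2AC6 (chr6:26124022-26124171, plus strand): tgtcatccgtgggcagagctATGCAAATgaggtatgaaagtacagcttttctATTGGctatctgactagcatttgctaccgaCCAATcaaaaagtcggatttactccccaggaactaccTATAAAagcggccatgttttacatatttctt
H2BC12 (chr6:27146859-27147008, minus strand): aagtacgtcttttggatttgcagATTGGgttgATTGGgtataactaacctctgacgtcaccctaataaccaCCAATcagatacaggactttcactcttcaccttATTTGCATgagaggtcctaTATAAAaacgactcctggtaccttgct
H2BC21 (chr1:149886683-149886832, minus strand): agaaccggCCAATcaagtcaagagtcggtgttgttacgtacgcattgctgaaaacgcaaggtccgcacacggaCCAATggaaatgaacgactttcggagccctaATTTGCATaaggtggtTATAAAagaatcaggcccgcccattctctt
H2BC6 (chr6:26183611-26183760, plus strand): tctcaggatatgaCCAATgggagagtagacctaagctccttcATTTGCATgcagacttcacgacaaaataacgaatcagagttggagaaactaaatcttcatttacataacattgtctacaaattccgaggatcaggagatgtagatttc
These 3 are shown for contrast, from classes with 0 called rises. They do not stand for every gene without a called rise, since H2AC17 and H2BC11 had the octamer and are not printed. Likewise H2BC5 and H2AC25 had a called rise without the octamer and are not printed.
H3C2 (chr6:26032100-26032249, minus strand): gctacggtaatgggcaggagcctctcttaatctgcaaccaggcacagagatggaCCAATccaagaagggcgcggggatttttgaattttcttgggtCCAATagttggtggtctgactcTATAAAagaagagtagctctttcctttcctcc
H4C9 (chr6:27139132-27139281, plus strand): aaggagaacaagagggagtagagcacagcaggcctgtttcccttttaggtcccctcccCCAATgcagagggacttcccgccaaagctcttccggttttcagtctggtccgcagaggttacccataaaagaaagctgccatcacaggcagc
H2AZ1 (chr4:99950276-99950425, minus strand): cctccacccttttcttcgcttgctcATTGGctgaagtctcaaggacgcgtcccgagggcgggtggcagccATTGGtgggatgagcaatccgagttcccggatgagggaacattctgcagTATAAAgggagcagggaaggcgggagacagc

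The octamer was present in 6 of 7 H2B windows and 3 of 4 H2A windows, and in 0 of the 12 windows of other classes. That is 9 of 23 histone windows (39.1%), against 1.7% of all 27305 windows. H2AC6 and H2BC4 lie head to head and share 1 octamer, so the 9 windows held 8 separate copies. Of the 9 genes 7 had a called average rise on at least 1 of their own probe sets. So did 13 of all 23 histone genes with a window, beside 18.4% of all probe sets called up. H2BC11 and H2AC17 had the octamer and no called average change, both with DMSO signals near the lowest value in the table. H1-10, H1-2, H2AC25, H2BC5, H2AJ and H2AX had a called average rise and no octamer. Whether the octamer goes with the rise was not tested. The CCAAT box was in 87.0% of histone windows and 33.0% of all windows, and TATAAA in 60.9% of histone windows and 11.1% of all windows. The H1 box was in 1 histone window, that of H1-2, and in 4.9% of all windows. CpG dinucleotides, the bases that DNMT1 keeps methylated, numbered 4 to 26 (median 9) in the 13 windows of genes with a called rise, against 3 to 23 (median 11) in the 10 without. These ranges overlapped, and all windows had a median of 11. A match is a run of letters and not a measured binding site, and DNA methylation was not measured here.

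On average over the 7 lines, H1, H2A, H2B and H2A.J signals were higher with GSK3484862, and no H3, H3.3 or H4 probe set was called. The change was the mean of the within-line differences, GSK3484862 minus DMSO, tested with limma over all 27306 probe sets and called at a Benjamini-Hochberg adjusted p under 0.05. Of the 52 histone probe sets 23 rose and 1 fell, beside a background of 18.4% of all probe sets called up and 24.2% called down. The median change of the 52 was 0.09, against -0.02 for all probe sets. By class, 2 of 2 H1 probe sets rose (median 0.76), 5 of 7 H2A (0.51), 11 of 13 H2B (0.45) and 4 of 4 H2A.J (0.44). Several of these, of H2B above all, end in _x_at or _s_at and may share signal, so the counts are not of separate genes. Without such probe sets 7 of the 22 remaining histone probe sets were called up, beside 17.8% of all remaining probe sets.

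The remaining classes gave smaller numbers. Of 3 H2A.X probe sets 1 rose, of 5 H2A.Z probe sets 1 fell, and 0 of 4 H3, 0 of 9 H3.3 and 0 of 5 H4 probe sets were called. At an unadjusted p under 0.05 limma gave 1 of the 18 H3, H3.3 and H4 probe sets. H1, H2A and H2B together had 18 of 22 called up with a median of 0.48, and H3 and H4 together 0 of 9 with a median of 0.01. Only H3C2, H3C7, H4C8, H4C9 and H4C11 stand for clustered H3 and H4 genes by their own probe sets. Of these, H3C2, H3C7 and H4C8 averaged between 2.23 and 2.95 in DMSO cells, close to the lowest value in the table. The size of any fall there was limited by that value. The shared H3 probe sets were also low in DMSO cells, with averages of 2.88 for 206110_at and 4.25 for 214472_at. The lack of H3 calls therefore rests on 4 probe sets of low signal. H2AC16 (2.81) and H2BC21 (2.92) were similarly low in DMSO cells and were called up. H4C9, H4C11 and the shared H4 probe sets were brighter.

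**Figure D1:**
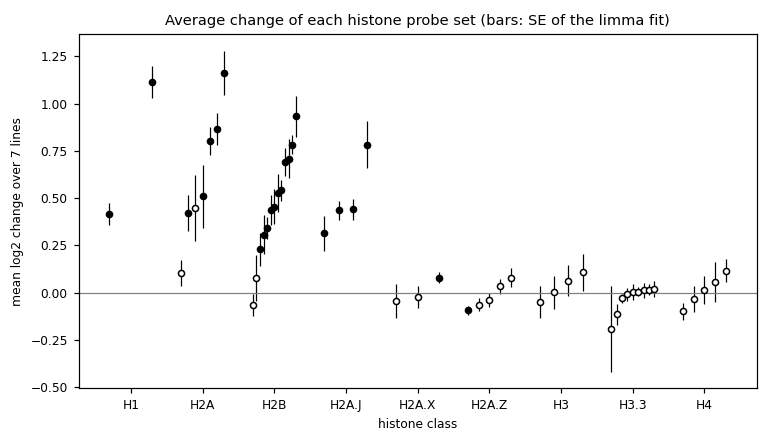
Mean log2 change (GSK3484862 minus DMSO) over the 7 lines for each of the 52 histone probe sets, grouped by class, with bars of the limma standard error; filled points passed an adjusted p under 0.05. The H1, H2A, H2B and H2A.J points reach from -0.07 to 1.16, while all H3, H3.3 and H4 points are open.

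The average is a statement on these 7 lines, since its error comes from duplicates. With each line as 1 unit, limma called 3 histone probe sets up (H2AC6, the shared H2A probe set 214290_s_at and H2AJ 225245_x_at), beside 1.15% of all probe sets, and 17 were up at an unadjusted p under 0.05, beside 11.6%. An average rise of at least 2-fold was called for 2 of 52, H2AC6 and H1-2, beside 0.824% of all probe sets. Leaving out a replicate number leaves 1 array per group, so the spread between duplicates is gone and the error is not that of the main fit. All 23 average rises kept their direction without replicate 1 and without replicate 2. With either replicate number left out, limma called 0 of all 27306 probe sets. At an unadjusted p under 0.05, 16 of 52 were then up in each case, beside 9.2% of all probe sets without replicate 1 and 9.8% without replicate 2.

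Among linker histones, H1-2 had the larger change. H1-2 (209398_at), one of the clustered somatic H1 genes, rose by 1.11 ± 0.08 (SE) on average, or 2.16-fold (limma adjusted p = 4.29e-08), and was higher in 7 of 7 lines. In THP1 it measured 7.27 and 7.01 with GSK3484862, against 4.70 and 4.49 in DMSO. In SKM1 it measured 12.45 and 13.06 with GSK3484862, against 10.54 and 11.29 in DMSO. These groups did not overlap, and the THP1 change of 2.55 ± 0.22, or 5.85-fold, was the highest of H1-2 in any line.

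H1-2 also rose in MOLM13, with 7.09 and 7.32 in GSK3484862 cells against 6.27 and 6.04 in DMSO cells, in SKNO1, with 7.49 and 7.92 in GSK3484862 cells against 6.73 and 6.79 in DMSO cells, and in GDM1, with 7.79 and 7.99 in GSK3484862 cells against 7.32 and 7.18 in DMSO cells. In SHI1 it measured 10.39 and 10.05 with GSK3484862 against 9.62 and 9.65 in DMSO (adjusted p = 0.264), and in NOMO1 9.02 and 9.17 with GSK3484862 against 8.94 and 8.94 in DMSO (adjusted p = 0.795). Neither line overlapped, but neither change passed the test. H1-10 (204805_s_at), a replication-independent linker histone gene outside the clusters, rose by 0.41 ± 0.06 on average and was called in MOLM13 and SKM1. In GDM1 its change was -0.17 ± 0.15 (adjusted p = 0.484).

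Among H2A probe sets, H2AC6 (215071_s_at) had the largest average change of all 52, 1.16 ± 0.12, or 2.24-fold (adjusted p = 9.86e-07). In GDM1 it measured 9.03 and 8.73 with GSK3484862, against 6.27 and 6.97 in DMSO. In SKM1 the values were 10.57 and 11.04 with GSK3484862, against 9.05 and 8.95 in DMSO. In MOLM13 they were 7.28 and 7.17 with GSK3484862 against 6.11 and 5.98 in DMSO. All 3 lines were called, with GDM1 highest at 2.26 ± 0.31.

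H2AC6 was also called in THP1, at 5.04 and 5.70 with GSK3484862 against 3.90 and 4.40 in DMSO. SKNO1 had 8.90 and 9.64 with GSK3484862 against 7.76 and 8.55 in DMSO (adjusted p = 0.0622), and SHI1 7.53 and 7.82 with GSK3484862 against 7.19 and 7.14 in DMSO (adjusted p = 0.606). NOMO1 overlapped, with 7.46 and 8.07 in GSK3484862 cells and 7.70 and 7.76 in DMSO cells. The shared H2A probe sets 218280_x_at and 214290_s_at rose by 0.86 ± 0.08 and 0.80 ± 0.07 on average, and both were called in GDM1, MOLM13 and SKM1. Each is annotated to 2 genes.

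H2AC16 (214554_at) rose by 0.51 ± 0.17 on average, from uneven arrays. In MOLM13 it measured 4.83 and 3.49 with GSK3484862, against 2.68 and 2.96 in DMSO, and in SKM1 3.74 and 5.72 with GSK3484862 against 3.22 and 3.20 in DMSO. In the other 5 lines all of its arrays stayed between 2.62 and 3.28. H2AC25 (221582_at), on chromosome 1, rose by 0.42 ± 0.10 on average and was called in GDM1 (1.37 ± 0.25) and SKM1 (0.90 ± 0.25). H2AC17 (214481_at) changed by 0.45 ± 0.18 on average (adjusted p = 0.0502) and was called in SKM1 alone, with 2.90 and 5.12 in GSK3484862 cells against 2.38 and 2.36 in DMSO cells, so 1 array carried most of the change from a signal near the lowest value. The shared probe set 207156_at, annotated to 6 genes, was not called on average (0.10 ± 0.07, adjusted p = 0.251) and split between lines. It rose in SHI1, with 4.62 and 4.33 in GSK3484862 cells against 3.82 and 3.32 in DMSO cells, and fell in GDM1, with 5.37 and 5.45 in GSK3484862 cells against 6.07 and 6.08 in DMSO cells.

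**Figure D2:**
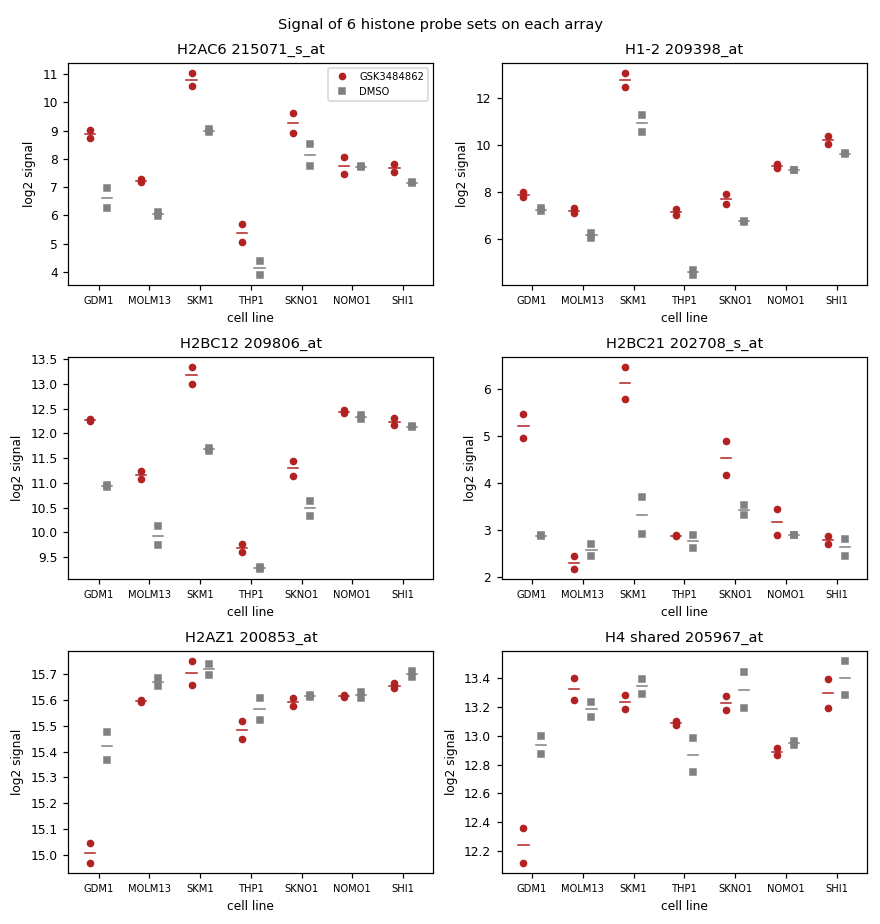
Log2 signal on each of the 28 arrays for 6 histone probe sets, GSK3484862 (red circles) left of DMSO (grey squares) in each line, with short lines at the mean of the 2 arrays; the vertical axes differ between panels. H2AC6, H1-2 and H2BC12 lie higher with GSK3484862 in several lines, and H2AZ1 and the shared H4 probe set 205967_at differ mainly in GDM1.

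Among H2B probe sets, H2BC12 (209806_at) had the smallest error. It rose by 0.78 ± 0.05 on average, or 1.72-fold (adjusted p = 1e-08), and was called in GDM1, MOLM13, SKM1 and SKNO1. In GDM1 it measured 12.24 and 12.29 with GSK3484862, against 10.92 and 10.95 in DMSO. In SKM1 it measured 13.01 and 13.34 with GSK3484862, against 11.71 and 11.64 in DMSO. The gap in these lines was larger than the distance between duplicates.

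H2BC12 measured 11.24 and 11.08 in MOLM13 with GSK3484862 against 10.13 and 9.74 in DMSO, and 11.14 and 11.45 in SKNO1 with GSK3484862 against 10.34 and 10.63 in DMSO. THP1 had 9.61 and 9.77 with GSK3484862 against 9.26 and 9.31 in DMSO (adjusted p = 0.0758). NOMO1, with 12.40 and 12.47 in GSK3484862 cells against 12.28 and 12.37 in DMSO cells, and SHI1, with 12.17 and 12.31 in GSK3484862 cells against 12.15 and 12.12 in DMSO cells, had the highest DMSO signals and the smallest changes, 0.11 ± 0.14 and 0.10 ± 0.14. Its paralogue on another chromosome, H2BC12L (208579_x_at), rose by 0.69 ± 0.07 on average and was called in GDM1, MOLM13 and SKM1, as H2BC12 was. The H2BC12L probe set ends in _x_at, so signal from H2BC12 in it cannot be told apart.

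H2BC21 (202708_s_at), an H2B gene on chromosome 1, was low in DMSO in every line, with arrays between 2.44 and 3.69 near the lowest value in the table, so the sizes of its changes were limited from below and no fold is given. It rose in SKM1, with 5.77 and 6.46 in GSK3484862 cells against 2.92 and 3.69 in DMSO cells, a change of 2.81 ± 0.28. It rose in GDM1, with 4.95 and 5.45 in GSK3484862 cells against 2.86 and 2.89 in DMSO cells, and in SKNO1, with 4.16 and 4.88 in GSK3484862 cells against 3.52 and 3.31 in DMSO cells. In MOLM13, THP1, NOMO1 and SHI1 the GSK3484862 and DMSO arrays overlapped. The SKNO1 call (adjusted p = 0.0412) was lost with quantile normalization (0.0646), on the line's own 4 arrays (0.285) and without 3 of the 4 arrays in turn (0.115 to 0.347).

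Most other H2B probe sets also rose on average. H2BC5 (209911_x_at) rose by 0.71 ± 0.10 and H2BC6 (208527_x_at) by 0.54 ± 0.06 on average, and both were called in GDM1, MOLM13 and SKM1. A second H2BC5 probe set, 222067_x_at, rose by 0.44 ± 0.08 on average. The shared probe set 208490_x_at, annotated to 5 genes, rose by 0.53 ± 0.10 and was called in GDM1, SKM1 and SKNO1. H2BC4 (236193_at) rose by 0.34 ± 0.06 on average, with called changes in SKM1, SKNO1 and THP1. In SKM1 it measured 4.38 and 4.38 with GSK3484862, against 3.40 and 3.15 in DMSO, and in SKNO1 4.38 and 4.59 with GSK3484862 against 3.35 and 3.55 in DMSO. H2BC9 (208546_x_at) rose by 0.45 ± 0.09 on average, and the shared probe sets 208523_x_at and 210387_at by 0.31 ± 0.10 and 0.23 ± 0.09. H2BC11 (-0.07 ± 0.06) and the pseudogene H2BW4P (0.08 ± 0.12) were the 2 H2B probe sets not called on average.

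H2A.J is a replication-independent H2A variant encoded by H2AJ, and its 4 probe sets all rose on average, by 0.31 ± 0.09 to 0.78 ± 0.12. The largest change was that of 220936_s_at in MOLM13, with 6.03 and 5.95 in GSK3484862 cells against 3.60 and 3.91 in DMSO cells. In THP1 this probe set measured 5.97 and 5.63 with GSK3484862, against 4.37 and 4.60 in DMSO. In SKM1 its arrays were uneven, 3.86 and 5.36 with GSK3484862, against 3.49 and 3.43 in DMSO. All 4 H2AJ probe sets were called in MOLM13, 3 in SKM1 and 2 in THP1, and 0 in GDM1. The brighter 225245_x_at changed by 0.63 ± 0.15 in MOLM13, so the size of the H2AJ change depended on the probe set.

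H2A.X, whose phosphorylated form marks DNA breaks, and H2A.Z, a variant found around active promoters, moved little on average. H2AX (205436_s_at) rose by 0.08 ± 0.03 on average (adjusted p = 0.0234), and without SKM1 its average was -0.02 (adjusted p = 0.52). In SKM1 it measured 13.03 and 13.06 with GSK3484862, against 12.28 and 12.41 in DMSO, a called rise. In GDM1 it measured 12.66 and 12.84 with GSK3484862, against 13.04 and 12.98 in DMSO, a called fall. The H2AX probe set 212525_s_at gave the same calls in both lines, and 213344_s_at gave neither.

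H2AZ1 (200853_at) fell by 0.09 ± 0.02 on average (adjusted p = 0.00456), the single called fall among the 52, and without GDM1 it was not called. In GDM1 it measured 14.97 and 15.05 with GSK3484862, against 15.48 and 15.37 in DMSO. In the other lines its arrays lay between 15.45 and 15.75 with GSK3484862, against 15.52 to 15.74 in DMSO. H2AZ2, the second H2A.Z gene, had 4 probe sets with average changes from -0.06 to 0.08, and 2 of them fell in GDM1.

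The H3.3 probe sets, 8 of them shared by 3 symbols, had average changes from -0.19 to 0.02. The lowest, H3-3A 213826_s_at, also had the largest error (-0.19 ± 0.23, adjusted p = 0.532). Of the 9, 1 was called in a single line, the shared 211998_at, which fell by 0.46 ± 0.15 in GDM1 (adjusted p = 0.0287), with 10.36 and 10.51 in GSK3484862 cells against 10.87 and 10.91 in DMSO cells. Of the shared H3 probe sets, 206110_at, annotated to 10 genes, fell in NOMO1, with 3.36 and 3.92 in GSK3484862 cells against 4.51 and 4.57 in DMSO cells. That call (adjusted p = 0.022) was lost on the line's own 4 arrays (0.25) and without 3 of the 4 arrays in turn (0.0546 to 0.256). The probe set lay at the lowest value of the table on all 4 THP1 arrays. Of the shared H4 probe sets, 205967_at, annotated to 14 genes, fell in GDM1, with 12.12 and 12.36 in GSK3484862 cells against a mean of 12.9 in DMSO, a change of -0.70 ± 0.12. In MOLM13 it measured 13.40 and 13.25 with GSK3484862 against 13.24 and 13.13 in DMSO (adjusted p = 0.476), a line in which 12 of 22 H1, H2A and H2B probe sets rose.

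**Figure D3:**
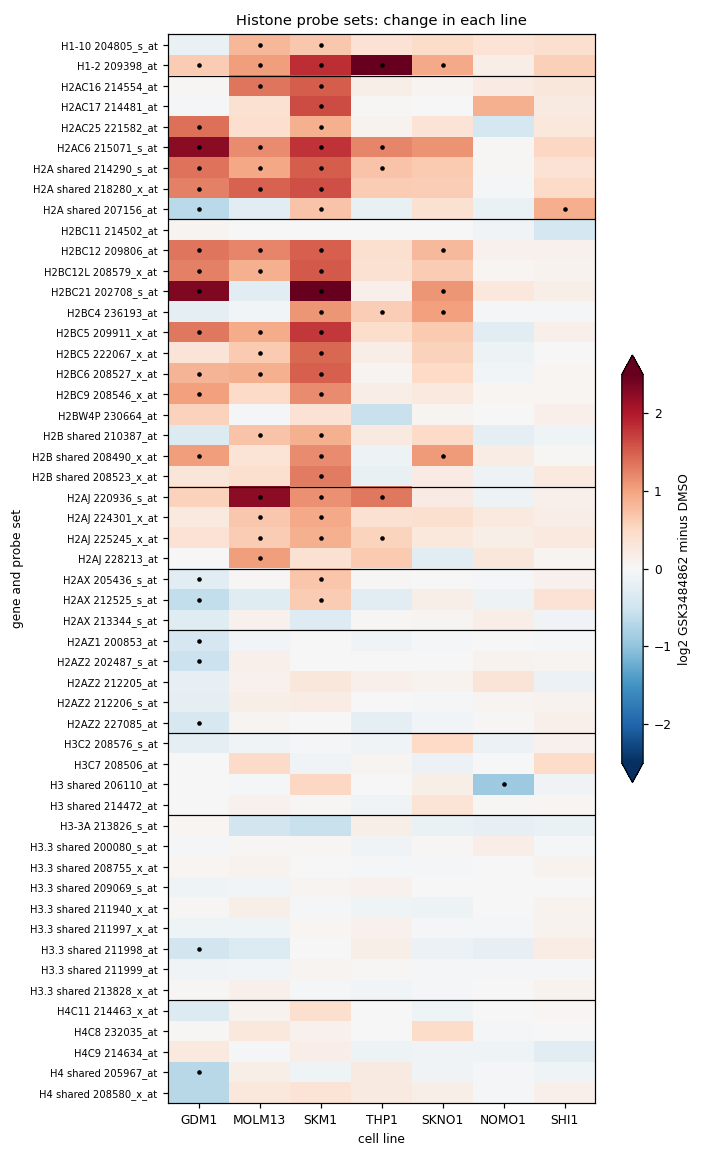
Log2 change (GSK3484862 minus DMSO) of each histone probe set in each line, with dots where limma called the change at an adjusted p under 0.05; colours saturate at 2.5 in either direction. Called H1, H2A and H2B rises number 20 of 22 in SKM1 and 12 of 22 each in MOLM13 and GDM1, called H2A.J rises stand in MOLM13, SKM1 and THP1, and the 8 called falls in GDM1 are of H2A, H2A.X, H2A.Z, H3.3 and H4 probe sets.

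The number of called histone probe sets differed widely between lines. SKM1 had 25 of 52 up and 0 down, beside 9.69% of all probe sets up and 10.3% down. MOLM13 had 16 up and 0 down (background 9.65% up and 11.5% down), and GDM1 12 up and 8 down (10.4% up and 15.5% down). THP1 had 6 up and 0 down (3.6% up and 5.61% down), and SKNO1 5 up and 0 down (1.77% up and 1.77% down). SHI1 had 1 up and 0 down (1.53% up and 0.524% down), and NOMO1 0 up and 1 down (2.43% up and 4.46% down), with 2 up at an unadjusted p under 0.05. At that unadjusted p limma gave 0 histone probe sets down in SKM1 and SKNO1 and 1 down each in MOLM13, THP1 and SHI1.

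In SKM1 20 of 22 H1, H2A and H2B probe sets rose, with a median of 1.47. GDM1 and MOLM13 each had 12 of 22 up, with medians of 0.74 and 0.68, and GDM1 also had 1 of 22 down. SKNO1 had 5 of 22 up with a median of 0.54, and THP1 4 of 22 up with a median of 0.16. The medians in SHI1 and NOMO1 were 0.14 and 0.02. Of the 17 H2A.X, H2A.Z and H3.3 probe sets 6 fell in GDM1 and 2, both H2AX, rose in SKM1.

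A line's count rested on the error shared by all 14 groups. On each line's own 4 arrays limma called 9 up and 1 down in GDM1 and 2 up in MOLM13. Of all 27306 probe sets it called 2894 in GDM1 and 2116 in MOLM13, in either direction. It called 0 histone probe sets up in SKM1, THP1, SKNO1 and SHI1, where it called 21, 2, 1 and 0 of all 27306 probe sets in either direction. At an unadjusted p under 0.05, 21 of 52 were up in SKM1 (8.77% of all probe sets up), 9 in THP1 (10.7%), 9 in SKNO1 (6.38%) and 10 in SHI1 (10.8%). Without 1 array at a time the count of rises was 1 to 3 in THP1, 2 to 7 in SKNO1, 0 to 2 in SHI1 and 10 to 13 in MOLM13, and the count of falls was 4 to 9 in GDM1 and 0 to 1 in NOMO1.

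Whether the change differed between lines was tested with limma's moderated F-test of the 6 independent differences. It called 22 of 52 histone probe sets, beside 25.2% of all probe sets, and 16 of the 22 H1, H2A and H2B probe sets. The smallest adjusted p were those of H2BC12 (8.22e-05), H2BC21 (9.29e-05), H2AX 205436_s_at (9.37e-05), H2BC6 (0.000281), H1-2 (0.000402) and H2BC4 (0.000489). The order of lines was not the same for each of them. H1-2 changed most in THP1, H2BC12, H2BC21, H2BC6, H2AX and H2BC4 most in SKM1, H2AC6 most in GDM1, and H2AJ 220936_s_at most in MOLM13.

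The DMSO levels of the lines also differed. For H1-2 the order was SKM1 (10.9), SHI1, NOMO1, GDM1, SKNO1, MOLM13 and THP1 (4.59), a range of 6.32, and both ends stood clear of their neighbours' arrays. For H2AC6 it was SKM1 (9.00), SKNO1, NOMO1, SHI1, GDM1, MOLM13 and THP1 (4.15), and the nearest arrays of SKNO1 and NOMO1 were both at 7.76. For H2BC12 it was NOMO1 (12.3), SHI1, SKM1, GDM1, SKNO1, MOLM13 and THP1 (9.28). Over the 22 H1, H2A and H2B probe sets the DMSO range between lines had a median of 2.49, and THP1 was lowest for 11 and SKM1 and NOMO1 highest for 7 each. For the 17 H2A.X, H2A.Z and H3.3 probe sets the median range was 0.62, and H2AZ1 had the smallest of all 52, 0.30.

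Genes with a called average rise were found both inside and outside the chromosome 6 clusters. A gene counted here if any of its own probe sets was called, while the background of 18.4% is of single probe sets. With 1 probe set per gene that background was 23.2%. Of 15 genes on chromosome 6 with their own probe set 8 had such a rise, beside 18.4% of all probe sets called up. So did 2 of 3 on chromosome 1 (H2AC25 and H2BC21) and 4 of 7 elsewhere (H1-10, H2AJ, H2AX and H2BC12L). The H2AX rise was 0.08 on 1 of its 3 probe sets, and without SKM1 that average was -0.02. Signal from H2BC12, on chromosome 6, cannot be told apart in the H2BC12L probe set. The chromosome 6 genes with none were H2AC17, H2BC11, H3C2, H3C7, H4C8, H4C9 and H4C11.

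Genes for histone mRNA production and histone chaperones gave called falls and no called rise on average. Of 43 such genes 41 were measured, 0 rose (2 at an unadjusted p under 0.05 in limma) and 25 fell on average, beside 24.2% of all probe sets down, with a median of -0.14. With each line as 1 unit 2 of these falls were called, beside falls of 557 of all 27306 probe sets. The largest falls were IPO4, an importin that carries histones (-0.54), CHAF1B, a subunit of the chromatin assembly factor CAF-1 (-0.47), ZNF473, a factor of histone mRNA 3′ processing (-0.46), and SSRP1, a subunit of the chaperone FACT (-0.40). NPAT, the activator of clustered histone genes, fell by 0.16 ± 0.03, and SLBP, which binds the stem-loop, fell by 0.11 ± 0.03 and is also in the S-phase list. Of histone variants whose symbols do not begin as above, CENPA, the centromeric H3 variant, fell by 0.12 ± 0.03 on average and by 0.85 in GDM1, and macroH2A genes MACROH2A1 (-0.06) and MACROH2A2 (-0.05) were not called.

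S-phase genes fell on average over the same cultures. Of 35 genes 34 were measured, 0 rose (0 at an unadjusted p under 0.05 in limma) and 30 fell on average, beside 24.2% of all probe sets down, with a median of -0.29. With each line as 1 unit 1 fall was called, beside falls of 557 of all 27306 probe sets. The largest were those of CDCA7 (-0.52), GINS3 (-0.47), EXO1 (-0.47) and UNG (-0.45). Their median was -0.89 in GDM1, -0.29 in MOLM13, -0.19 in SKM1, -0.21 in THP1, -0.17 in SKNO1, -0.08 in NOMO1 and -0.05 in SHI1. In SKM1 2 S-phase genes were called up and 11 down, beside 9.69% of all probe sets up and 10.3% down. In NOMO1 and SHI1 0 were called in either direction. Markers of mature myeloid cells rose on average for 10 of 11 measured, beside 18.4% of all probe sets called up. With 1 probe set per gene that background was 23.2%. With each line as 1 unit 1 of these rises was called, beside 1.15% of all probe sets. Their medians were 2.1 in MOLM13, 1.12 in SKM1, 0.66 in THP1, 0.52 in SHI1, 0.47 in NOMO1, 0.41 in GDM1 and 0.12 in SKNO1. In GDM1 5 of these markers were called up and 1 down. The part of cell cycle and of maturation in the histone values was not tested. Of 19 markers of other tissues and blood lineages 4 were measured, with levels from 3.86 to 13.6. PECAM1, an endothelial gene that myeloid cells also express, rose by 0.71 ± 0.07 on average and changed by 2.06 in MOLM13, and the epithelial keratin KRT8 rose by 0.38 ± 0.06 and changed by 1.54 in NOMO1. COL1A1 and CD79A were not called, and the part of these markers in the histone values was not tested.

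**Figure D4:**
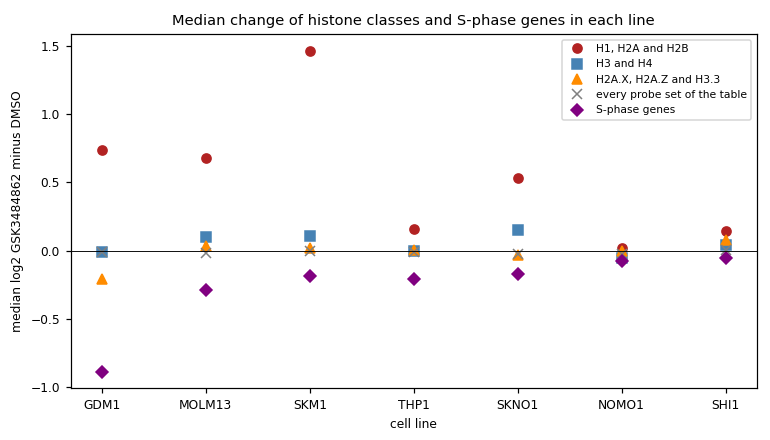
Median log2 change (GSK3484862 minus DMSO) in each line for H1, H2A and H2B (22 probe sets), H3 and H4 (9), H2A.X, H2A.Z and H3.3 (17), all probe sets of the table, and 34 S-phase genes. The H1, H2A and H2B median is highest in SKM1 (1.47) and near 0 in NOMO1 (0.02), while the S-phase median is lowest in GDM1 (-0.89).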

How the data were processed

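Each sample was 1 array, grouped by line and treatment from its labels. The authors deposited 1 table of log2 probe set values. The submitters' processing notes name limma only. The sources used here do not give background correction, normalization, probe set filters, batches or scan dates. The values were used as deposited.

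Probe sets were named through the platform annotation (22580 with 1 symbol, 1098 with several, 3628 with none listed). limma 3.58.1 in R 4.3.3 (lmFit, eBayes) was fitted to all 27306 probe sets in 14 groups, with 14 residual and 2.37 prior degrees of freedom. Two-sided p-values were adjusted by Benjamini-Hochberg over the table and measure only the spread between duplicates. The fit was tested on simulated data. Named probe sets were the 12 largest called average rises and up to 8 falls, each line's largest called rise and fall, and the 6 smallest F-test p; others were given by class or chosen after their values were seen. The members and lists were chosen with earlier results of these data known.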

Additional observations from a re-analysis of the deposited data

Results flagged for a closer look

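The change differed between lines by limma's F-test for these named histone probe sets, given with their adjusted p over all probe sets. Among H1 and H2A they were H1-2 (0.000402), H2AC6 (0.0155), and the shared 214290_s_at (0.00595), 218280_x_at (0.00566) and 207156_at (0.00195). Among H2B they were H2BC12 (8.22e-05), H2BC21 (9.29e-05), H2BC6 (0.000281), H2BC4 (0.000489), H2BC12L (0.003), H2BC5 209911_x_at (0.0096) and the shared 208490_x_at (0.0436). Among variants and H4 they were H2AX 205436_s_at (9.37e-05), H2AJ 220936_s_at (0.00897), H2AZ1 (0.0201) and the shared H4 probe set 205967_at (0.0101).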

How the results depend on the processing

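Of 344 values of 18 named probe sets recomputed under the alternatives, 264 kept their direction and side of the threshold, 79 kept the direction but no longer passed, and 1 reversed, H2AX 205436_s_at without SKM1 (-0.024). The 23 average rises became 15 with 1 probe set per gene (25 tested). Of the 23 rises 14 remained in that test and all 14 were called. Without _x_at and _s_at probe sets there were 7 rises (22 tested, where 7 of the 23 remained and all 7 were called). The count was 3 with lines as units, 2 at 2-fold or more and 0 without either replicate number. The 1 average fall became 2 with trend and robust options, without MOLM13 and without THP1, 3 without SHI1, and 0 with lines as units, without GDM1, without a replicate number and at 2-fold. On a line's own 4 arrays, rises numbered 2 in MOLM13 (2116 of all probe sets called in either direction) and 0 in SKM1, THP1, SKNO1 and SHI1. Falls numbered 1 in GDM1 (2894 of all probe sets called in either direction) and 0 in NOMO1. Leaving out 1 array at a time, with the lone array taken to vary like the other groups, gave 4 to 9 falls in GDM1, 10 to 13 rises and 0 to 1 falls in MOLM13, 0 to 1 rises and 0 to 1 falls in NOMO1, 0 to 2 rises in SHI1, 0 to 1 falls in SKM1, 2 to 7 rises in SKNO1 and 1 to 3 rises in THP1. The labels do not say whether same-numbered arrays were handled together, although the sample titles number all arrays of replicate 1 before those of replicate 2. Their deviations correlated at -0.117 to 0.314, over 0.1 in 3 of 7 lines, which does not decide whether they were paired. The replicate block changed 2 of the line counts by more than 1.5 times, to 9 rises in SKNO1 and 0 falls in NOMO1, and gave 23 average rises, and without SKM1, an alternative chosen after seeing the data, SKNO1 had 8. The F-test called 13 at an adjusted p under 0.01. With lines as units the falls of histone supply genes became 2, of S-phase genes 1 and of other variants 0, and the rises of mature myeloid markers 1. Quantile normalization and 1 probe set per gene each gave 1 rise among histone supply genes. Signals near the lowest value limit what can be seen of H3C2, H3C7, H4C8, H2BC11, H2BC21, H2BC4, H2AC16, H2AC17, H2AJ 220936_s_at and 228213_at, and the shared 206110_at and 210387_at. The cause of these changes was not tested.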
